A study of Mus musculus with 9 samples.

Results

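Oxidative phosphorylation, the chain of enzyme complexes that makes most ATP in respiring mitochondria, was followed through the 100 protein-coding genes for its subunits among the 54532 genes of the deposited expression table. Members were chosen by GENCODE M21 symbol and not by their values, though with earlier results of these data known: symbols starting with Ndufa (without the Ndufaf assembly factors), Ndufb, Ndufc, Ndufs, Ndufv, Uqcr, Cox4 to Cox8, Atp5, mt-Nd, mt-Co, mt-Cytb or mt-Atp, together with Sdha to Sdhd and Cyc1. Of these, 87 lie in nuclear chromosomes and 13 in mitochondrial DNA. The nuclear members are 36 of complex I, 4 of complex II, 9 of complex III, 20 of complex IV and 18 of complex V, and the mitochondrial ones are 7, 0, 1, 3 and 2. Ndufa4, which carries a complex I name, is a subunit of complex IV and was placed there with its paralog Ndufa4l2. A gene was tested where at least 3 libraries reached 1 FPKM, the fragment count scaled to exon length and to a factor for each library, which held for 81 nuclear and all 13 mitochondrial members. The 6 that were not tested are Cox4i2, Cox7b2, Cox8b, Cox8c, Ndufa4l2 and a second gene that carries the symbol Atp5o and is listed at 0 in all 9 libraries.

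Complexes I and II pass electrons from NADH and succinate to ubiquinone, complex III hands them to cytochrome c and complex IV to oxygen. Complexes I, III and IV pump protons as they do so, and complex V, the ATP synthase, lets them flow back to make ATP. Complex II is wholly nuclear encoded, while the other complexes join subunits from both genomes, and mature neutrophils are known for relying on glycolysis and holding few respiring mitochondria.

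The libraries came from myeloid cells of C57BL/6 mice aged 6 to 8 weeks, with 3 libraries (A, B and C) in each of 3 groups. The groups fl and Gr_1 are both labelled wild type, and KO is labelled as a knockout of Socs3, an inhibitor of cytokine signalling through STAT3. What the names fl and Gr_1 stand for, how the cells were isolated and which promoter or cell type drove the deletion are not given in the labels. The labels also do not say that each library is an animal of its own, so the spread behind the p-values is that between these libraries and may be technical. Between 18300000 and 21500000 fragments per library were recovered from the values. Socs3 itself was at 3.87, 4.01 and 3.40 FPKM in fl, 9.23, 6.76 and 8.37 in KO and 37.0, 36.6 and 33.0 in Gr_1, so it was higher in the libraries labelled KO than in fl (log2 change 0.93 ± 0.11, adjusted p = 0.00136, from limma on log2(FPKM + 1), where ± is the standard error here and below), and these values do not tell whether the deleted part is among the fragments counted. Xist, which is made from an inactive X chromosome, was at 58.5 FPKM in KO B and 26.3 in KO C, and at most 0.0104 in the other 7 libraries. The Y-linked gene Eif2s3y was at 8.64 to 14.2 FPKM in fl, 20.3 to 23.6 in Gr_1, 14.2 in KO A and 0 in KO B. Comparisons with KO thus also carry a difference in sex-linked signal, whose part in the members' values was not tested. Eif2s3y was at 7.57 in KO C, so KO C holds both signals. Counts of calls in KO are therefore given with and without KO C, and also without fl C, which stood apart from fl A and fl B in the members themselves. Without KO C, 378 genes of the whole table were lower in KO than in fl and 195 higher, instead of 801 and 551.

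The deposited levels of the mitochondrial members split into 7 genes at 145 FPKM or more in every library and 6 genes at 18.1 or less. The high genes were mt-Co1 (2543 ± 437 FPKM in fl, SD, n = 3), mt-Cytb (766 ± 145), mt-Nd1 (720 ± 119), mt-Nd5, mt-Nd2, mt-Nd6 and mt-Nd4 (271 ± 70.4). The low ones were mt-Co2 (15.2 ± 3.56), mt-Nd3, mt-Co3, mt-Atp6, mt-Nd4l and mt-Atp8 (1.35 ± 0.257). Mitochondrial genes are copied as long precursors that are then cut into single transcripts. Of the low genes, 5 have a near-identical copy in a row of unprocessed pseudogenes on chromosome 1 (minus strand of GRCm38). Between 97.6% and 99.9% of all 100-base words of mt-Co2, mt-Atp6, mt-Co3, mt-Nd3 and mt-Nd4l occur in other annotated transcripts, against 60.8% for mt-Nd4, 30.8% for mt-Co1, 3.20% for mt-Nd2 and none for mt-Nd1, mt-Nd5, mt-Nd6, mt-Cytb and mt-Atp8. Aligned without gaps, mt-Co3 and its copy Gm28437 (24613189 to 24613971) did not differ in any of 783 bases, and mt-Nd3 and Gm28438 (24612775 to 24613119) differed at 1 of 345. These pairs are shown because a read from such a stretch has the same letters in both places, or differs by a single base, which is in capitals.
mt-Nd3 (chrM:9459-9538, plus strand): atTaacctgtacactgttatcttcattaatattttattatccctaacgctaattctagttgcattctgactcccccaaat
Gm28438 (chr1:24613040-24613119, minus strand): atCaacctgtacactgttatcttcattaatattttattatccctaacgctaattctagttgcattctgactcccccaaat
mt-Co3 (chrM:8958-9037, plus strand): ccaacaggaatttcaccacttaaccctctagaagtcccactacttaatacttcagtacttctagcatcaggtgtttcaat
Gm28437 (chr1:24613541-24613620, minus strand): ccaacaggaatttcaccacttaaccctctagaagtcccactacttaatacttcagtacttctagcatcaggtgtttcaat
The sequences are from the GENCODE M21 transcripts. Together the 5 copied genes held between 325 and 743 fragments per library and the 7 pseudogenes of the block between 288 and 652, against 68870 to 166000 for the 13 mitochondrial members. How the authors counted reads with several places of origin is not known from the labels, and the part of the copies in the low values was not tested. mt-Atp8 shares no such word, and it overlaps mt-Atp6. The low genes are given here as listed values. mt-Nd5 and mt-Nd6 overlap on opposite strands and mt-Nd4 overlaps mt-Nd4l. These overlaps are short, since mt-Nd5 ends at 13565 and mt-Nd6 starts at 13552, and mt-Nd4l ends at 10173 and mt-Nd4 starts at 10167. No source used here says whether strand was used in counting. Fragments within an overlap, or from the opposite strand of a gene, therefore cannot be told apart.

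**Figure D1:**
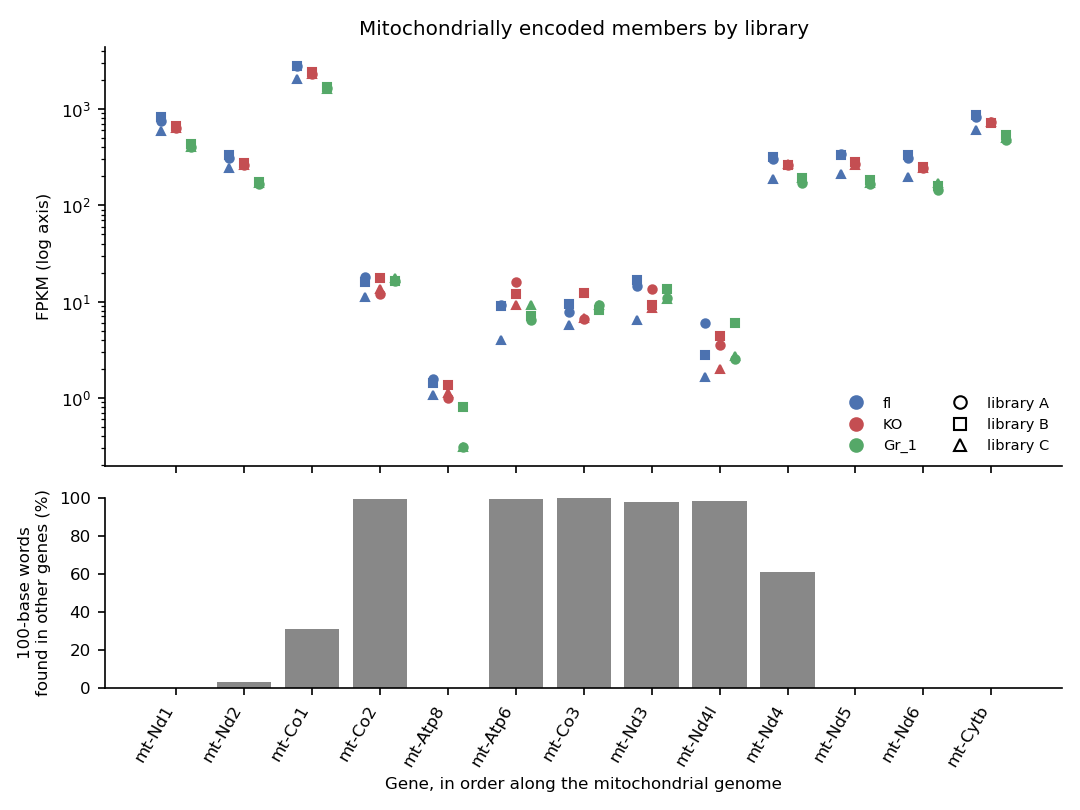
FPKM of the 13 mitochondrially encoded members in each library (upper panel, log axis, colour for group and symbol for library) and the percent of each gene's 100-base words found in another annotated transcript (lower panel). The 5 genes with 97.6% to 99.9% of words shared, and mt-Atp8, lie at 18.1 FPKM or less, and the other 7 at 145 or more.

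Summed over members as deposited, mitochondrial transcripts were lower in Gr_1 than in the other groups, and nuclear ones were lower in KO and Gr_1 than in fl. The mitochondrial sum was 5699, 5862 and 4097 FPKM in fl A, B and C, 4791, 4935 and 4790 in KO and 3236, 3442 and 3251 in Gr_1. The nuclear sum was 4622, 4772 and 5737 FPKM in fl, 4254, 4272 and 4275 in KO and 4245, 4055 and 3846 in Gr_1. All Gr_1 libraries lay below all others in the mitochondrial sum, and all fl libraries lay above all others in the nuclear sum. The mitochondrial sums and shares use the genes as listed, so they may miss fragments that also match the chromosome 1 copies. Library fl C had the highest nuclear and, within fl, the lowest mitochondrial sum, so that mitochondrial genes made up 41.7% of the members' FPKM there against 55.2% and 55.1% in fl A and fl B. This share was 53.0%, 53.6% and 52.8% in KO and 43.3%, 45.9% and 45.8% in Gr_1. Without fl C, which was left out because of such values, the fl mean share was 55.2% (50.7% with it), and the fl mitochondrial sums, 5699 and 5862, no longer overlapped with those of KO. The 2 mitochondrial rRNAs, by contrast, had summed levels of 230, 236 and 250 FPKM in fl and 502, 599 and 623 in Gr_1. In fl, mt-Rnr1 and mt-Rnr2 were at means of 130 and 108 FPKM, against 2543 for mt-Co1. How rRNA was handled before sequencing is not described here, so these rRNA levels may not follow those in the cells. The mitochondrial tRNAs summed to 513.5, 571.1 and 652.9 FPKM in fl, 404.8, 396.8 and 399.5 in KO and 401.4, 383.0 and 370.2 in Gr_1. In bulk RNA, fewer cells of a type and less RNA per cell cannot be told apart.

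**Figure D2:**
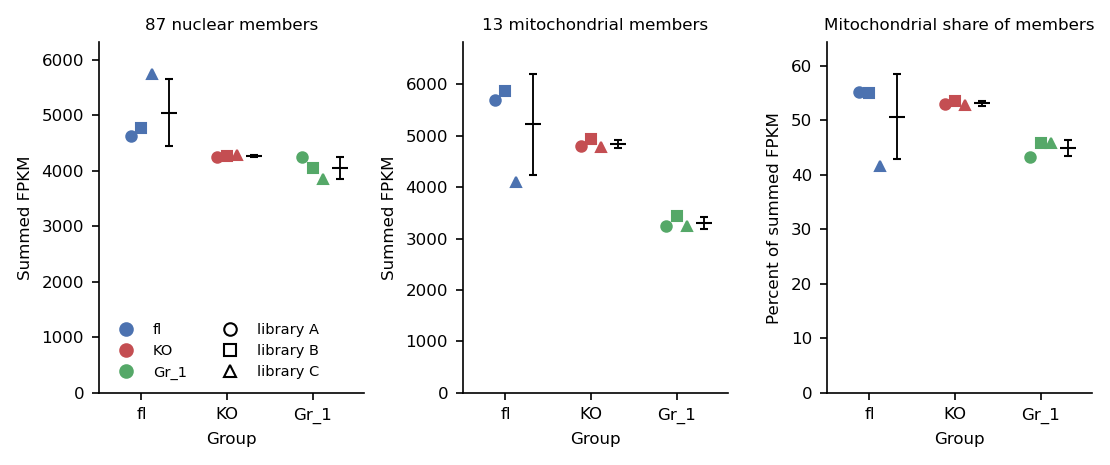
Summed FPKM, as deposited and not rescaled, of the 87 nuclear members, of the 13 mitochondrially encoded members, and the mitochondrial share of both, by library, with the group mean and SD (n = 3) in black. Library fl C (triangle) is highest in the first panel and lowest of fl in the second, and the Gr_1 libraries lie below all others in the second. The mitochondrial sums and shares may miss fragments that also match other annotated transcripts.

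Cell type markers differed between the same groups. Their counts of calls stand beside 30.0% of all genes tested higher and 31.4% lower in Gr_1 than in fl. In KO 4.48% of all genes were higher and 6.52% lower. Late neutrophil genes (12 of 12 tested) summed to 10670 to 14140 FPKM in fl, 11810 to 17490 in KO and 29470 to 29940 in Gr_1, with 11 of 12 higher in Gr_1 than in fl and 9 of 12 higher in KO. Early granulocyte genes (8 of 8 tested) summed to 5291 to 7461, 4678 to 8102 and 956 to 1097 FPKM, and 7 were lower in Gr_1. Monocyte genes (10 of 10 tested) summed to 1127 to 1281, 728 to 766 and 443 to 493 FPKM, with 9 lower in KO and 10 lower in Gr_1. The granulocytic and monocytic markers were present in all groups, in unlike amounts. Eosinophil, basophil and mast cell genes summed to 8678 FPKM in fl C against 4079 and 4422 in fl A and fl B, 4557 to 9200 in KO and 1328 to 1707 in Gr_1, with 6 of 10 higher in KO and 3 lower in Gr_1. Proliferation genes summed to 641 to 679 FPKM in fl, 622 to 682 in KO and 408 to 454 in Gr_1, and 8 of 10 were lower in Gr_1. B cell genes summed to 228 to 262 FPKM in fl and 659 to 723 in Gr_1, with 9 of 9 higher. Erythroid and platelet genes summed to 52.0 to 78.0, 121 to 124 and 144 to 228 FPKM (3 of 11 higher in KO and 9 in Gr_1), and NK cell genes to 139 to 202, 131 to 252 and 15.6 to 21.4 FPKM (4 of 6 higher in KO and 4 lower in Gr_1). T cell genes, 3 of 8 tested, summed to 2.21 to 3.53, 9.12 to 11.0 and 7.77 to 10.4 FPKM, with 3 higher in KO and 2 in Gr_1. Macrophage genes (9 of 10 tested) summed to 183 to 189, 110 to 132 and 129 to 140 FPKM, with 3 lower in KO, and 5 higher and 3 lower in Gr_1. Progenitor genes (5 of 7 tested) summed to 20.0 to 25.0, 33.0 to 40.4 and 22.5 to 27.9 FPKM, with 2 higher in KO, and 1 higher and 3 lower in Gr_1. Without KO C, the calls in KO were 7 late neutrophil, 2 T cell, 2 eosinophil, basophil and mast cell, 1 NK cell and 1 progenitor gene higher, and 7 monocyte and 1 macrophage gene lower. Without fl C they were 7, 3, 6, 2 and 3 higher in the same order, with 2 erythroid and platelet genes, and 8 and 2 lower. Of all genes, 195 of 12175 were higher and 378 lower without KO C, and 486 of 12150 higher and 688 lower without fl C. No marker of these lists was at 0 in all libraries. Their part in the members' differences was not tested.

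In KO against fl, most nuclear members had log2 changes slightly below 0, but few passed the test. With limma on log2(FPKM + 1), 1 of the 81 tested was higher (4.48% of all genes tested were) and 7 were lower (6.52% of all genes), at an adjusted p under 0.05. The median log2 change of the nuclear members was -0.22, beside -0.014 over all 12289 genes, and 76 of 81 were negative. In 46 of 81 the KO libraries all lay below the fl libraries, which held for 17.9% of all genes. Without adjustment, 36 had a lower level and 1 a higher one at p under 0.05, beside 14.8% and 11.5% of all genes. The number called lower was smaller whenever 1 library was left out. It was 1, 2 and 3 without fl A, B or C, 3, 2 and 0 without KO A, B or C, and 3, 1 and 5 without Gr_1 A, B or C, which enter through the shared spread. Over all genes, the number lower fell from 801 to 491, 464 and 688, to 747, 626 and 378, and to 630, 640 and 707 in the same order. The median was -0.14 without fl C. Of the 13 mitochondrial members limma called 0 (1 of them, mt-Atp6, at an unadjusted p under 0.05, and 0 called with voom on recovered fragments), with a median of -0.087. Without fl C, limma called 3 of the 13 lower in KO, mt-Nd2, mt-Nd5 and mt-Nd6 (log2 changes -0.27, -0.31 and -0.39, with adjusted p = 0.0348, 0.0296 and 0.0228). fl C was set apart by its values in these same members, so the fit without it is no independent test of them. Of all genes, 688 of 12150 were called lower in KO in that fit.

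In Gr_1 against fl, 49 of 81 nuclear members were lower, where 31.4% of all genes were, and 1 was higher, where 30.0% of all genes were. The median log2 change was -0.37, beside -0.030 over all genes, and in 52 of 81 the Gr_1 libraries all lay below the fl libraries (34.8% of all genes). By complex, 22 of 36 were lower in I, 2 of 4 in II, 6 of 9 in III, 9 of 15 in IV and 10 of 17 in V. The summed deposited FPKM of Gr_1 was 0.819 of that of fl for complex I, 0.883 for II, 0.767 for III, 0.827 for IV and 0.754 for V. Over all nuclear members it was 0.803, and 0.605 when taken as a percent of all FPKM of a library. Among mitochondrial members 8 of 13 were lower, which comprise the 7 abundant genes and mt-Atp8. The median of the 7 abundant genes was -0.73. The deposited values carry a scaling in which the FPKM of Gr_1 sum to more than those of fl. With each library set to the same total, the median of all genes moved to -0.36 in Gr_1 against fl and to 0.36 in KO against Gr_1, and 78 nuclear members were then lower in Gr_1 and 0 higher, where 54.2% and 15.5% of all genes were. Relative to the median of all genes, the median nuclear member was lower by a log2 change of -0.34 as deposited and -0.37 with equal totals, and the median of the 7 mitochondrial genes by -0.70 and -0.78. The comparisons of KO and of Gr_1 share the fl libraries, so their values for a member are not independent.

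**Figure D3:**
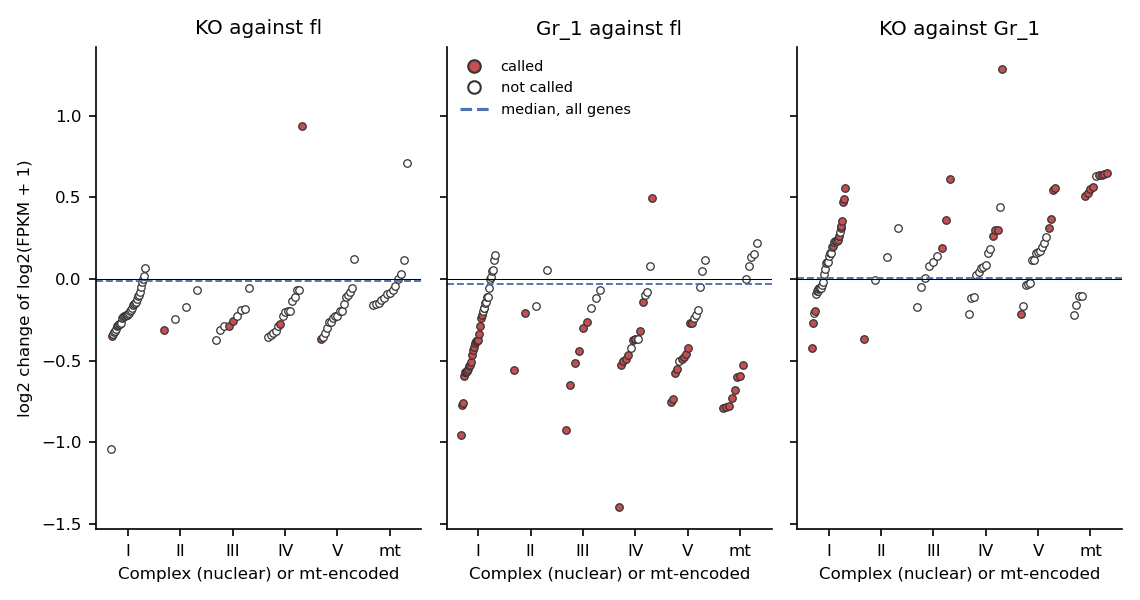
Log2 change on log2(FPKM + 1) of every tested member in the 3 comparisons, in order of size within each nuclear complex (I to V) and for the mitochondrial genes (mt); filled points were called at an adjusted p under 0.05 and the dashed line is the median of all genes. Nuclear members lie mostly below the line in KO against fl and Gr_1 against fl, with Cox6a2 highest among them in both.

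Among mitochondrial members of complex I, mt-Nd1 was at 754, 820 and 588 FPKM in fl, 629, 662 and 642 in KO and 404, 438 and 399 in Gr_1. The Gr_1 libraries lay below both other groups, while the KO values lay within the range of fl (log2 change -0.79 ± 0.12, adjusted p = 0.000503 for Gr_1 against fl). mt-Nd2 was at 310, 332 and 242 FPKM in fl, 264, 274 and 263 in KO and 166, 175 and 169 in Gr_1, with the same order (log2 change -0.78 ± 0.11, adjusted p = 0.000314). mt-Nd5 was at 343, 334 and 211 FPKM in fl, 270, 282 and 264 in KO and 165, 186 and 172 in Gr_1 and lower in Gr_1 (log2 change -0.73 ± 0.17, adjusted p = 0.00475). mt-Nd6, the one protein gene of the opposite strand, was at 310, 336 and 196 FPKM in fl, 242, 252 and 243 in KO and 145, 160 and 169 in Gr_1 and lower in Gr_1 as well (log2 change -0.79 ± 0.18, adjusted p = 0.00425). mt-Nd4 was at 305, 318 and 190 FPKM in fl, 262, 261 and 270 in KO and 169, 190 and 191 in Gr_1, so fl C lay within the range of Gr_1. Its call in Gr_1 against fl (log2 change -0.53 ± 0.17, adjusted p = 0.0269) was lost without fl A, without fl B or without any 1 of the Gr_1 libraries (highest adjusted p = 0.0952). mt-Nd3 and mt-Nd4l, both listed low, were at 6.37 to 16.6 and 1.64 to 5.97 FPKM over the 9 libraries, with overlap between all groups.

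mt-Cytb, the membrane core of complex III, was at 828, 869 and 601 FPKM in fl, 743, 721 and 741 in KO and 477, 532 and 496 in Gr_1. Gr_1 lay below the other groups (log2 change -0.59 ± 0.13, adjusted p = 0.00437). mt-Co1, the catalytic subunit of complex IV and the member with the highest listed FPKM, was at 2791, 2800 and 2039 FPKM in fl, 2328, 2425 and 2326 in KO and 1666, 1708 and 1606 in Gr_1. It was lower in Gr_1 (log2 change -0.60 ± 0.13, adjusted p = 0.00400), where all libraries lay below the others, and was not called in KO (log2 change -0.093 ± 0.13, adjusted p = 0.700). mt-Co2 and mt-Co3 were listed at 11.2 to 18.1 and 5.73 to 12.1 FPKM, with overlapping groups. mt-Atp6, part of the proton channel of complex V, was at 9.28, 9.05 and 3.97 FPKM in fl, 15.8, 11.9 and 9.32 in KO and 6.41, 7.04 and 9.17 in Gr_1. KO lay above fl, by a narrow margin and without passing the test (log2 change 0.71 ± 0.29, adjusted p = 0.161), and its chromosome 1 copy Gm10925 was at 8.02, 10.8 and 24.0 FPKM in KO and 10.1, 9.80 and 6.62 in fl. mt-Atp8 was called lower in Gr_1 (log2 change -0.68 ± 0.16, adjusted p = 0.00456), but the values rest on 17 fragments in all of fl, 15 in KO and 5 in Gr_1, and voom on recovered fragments called 7 mitochondrial members rather than 8.

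Complex I held the largest number of nuclear members. The accessory subunits of the membrane arm Ndufb11 and Ndufa1, both X-linked, were the most abundant on the length-scaled measure. Ndufb11 was at 106, 117 and 159 FPKM in fl, 108, 106 and 110 in KO and 118, 112 and 112 in Gr_1, with fl C above the rest and no call in either comparison with fl. Ndufb10, another membrane arm subunit (ENSMUSG00000040048, chromosome 17, 24722060 to 24724478, minus strand), was at 65.5, 65.1 and 70.7 FPKM in fl, 53.5, 51.5 and 52.4 in KO and 47.7, 46.1 and 42.7 in Gr_1. The 3 groups did not overlap, and Ndufb10 was lower in KO (log2 change -0.35 ± 0.064, adjusted p = 0.0103) and in Gr_1 (log2 change -0.55 ± 0.064, adjusted p = 0.000103). Its call in KO was lost without KO C alone (adjusted p = 0.0527). Ndufb8, also of the membrane arm, was at 18.6, 17.8 and 19.4 FPKM in fl and 15.8, 14.4 and 15.1 in KO (log2 change -0.29 ± 0.069, adjusted p = 0.0314). This call was lost in 6 of 9 fits that each left out a library, with adjusted p up to 0.112, and Ndufb8 was also lower in Gr_1 (log2 change -0.39 ± 0.069, adjusted p = 0.00108).

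In Gr_1, the changes of Ndufa5 and Ndufb3 were among the largest of complex I. Ndufb3, of the membrane arm, was at 85.5, 91.5 and 98.5 FPKM in fl, 74.5, 78.8 and 74.6 in KO and 58.5, 52.0 and 50.9 in Gr_1. The groups formed 3 separate levels (log2 change -0.76 ± 0.077, adjusted p = 5.09e-05 for Gr_1 against fl), and the step from fl to KO did not pass the test (log2 change -0.27 ± 0.077, adjusted p = 0.0597). Ndufa5, an accessory subunit of the matrix arm, was at 25.4, 28.6 and 25.9 FPKM in fl, 20.6, 25.1 and 22.9 in KO and 15.6, 15.7 and 14.1 in Gr_1, with Gr_1 well below the others (log2 change -0.77 ± 0.085, adjusted p = 8.04e-05). Ndufa12, another matrix arm subunit, was at 11.6, 4.67 and 15.6 FPKM in fl, 3.62, 4.75 and 4.07 in KO and 4.97, 4.88 and 3.62 in Gr_1. fl A and fl C were high and fl B was among the KO and Gr_1 values, so the groups overlapped. Ndufa12 was called lower in Gr_1 (log2 change -0.95 ± 0.33, adjusted p = 0.0335), but not without fl A, without fl C or without any of the Gr_1 libraries (adjusted p up to 0.103), and 11.4% of its 100-base words occur elsewhere, in the processed pseudogene Gm15920 above all. Ndufa12 was not called in KO (log2 change -1.04 ± 0.33, adjusted p = 0.0844).

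Among the core subunits of complex I, some were called and some were not. Ndufs8 was at 62.1, 60.9 and 71.7 FPKM in fl and 48.8, 43.3 and 38.2 in Gr_1 (log2 change -0.57 ± 0.10, adjusted p = 0.00112), and Ndufs3 at 12.5, 13.7 and 14.2 FPKM in fl and 9.88, 9.18 and 8.06 in Gr_1 (log2 change -0.53 ± 0.081, adjusted p = 0.000532). Ndufs7, Ndufv1 and Ndufv2 were lower in Gr_1 too, with log2 changes of -0.29, -0.41 and -0.34. Ndufs1, the largest core subunit, was at 7.44, 6.55 and 5.36 FPKM in fl, 6.75, 6.97 and 6.50 in KO and 7.18, 7.51 and 6.42 in Gr_1 and was not called in any comparison. The mitochondrial acyl carrier protein Ndufab1, which also serves fatty acid synthesis, was at 3.05, 3.29 and 4.05 FPKM in fl and 2.42, 2.54 and 1.91 in Gr_1 and lower (log2 change -0.44 ± 0.11, adjusted p = 0.00699). Of the 36 nuclear members of complex I, 14 were not called in Gr_1 against fl, among them Ndufa13, Ndufs4 and Ndufs5, which are described with KO against Gr_1. Also lower in Gr_1 were Ndufb5, Ndufc1, Ndufc2, Ndufa10, Ndufa9, Ndufs6, Ndufb6 and Ndufa2, with log2 changes of -0.57, -0.56, -0.53, -0.51, -0.47, -0.37, -0.24 and -0.22. The call of Ndufa2 was lost in 7 of 9 fits without a library (adjusted p up to 0.152) and that of Ndufb6 in 4 (adjusted p up to 0.0903), while those of the other 6 were kept in all 9. The 14 tested nuclear members of complex I that were not called in Gr_1 had log2 changes from -0.20 to 0.15.

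Complex II is made of the flavoprotein Sdha, the iron-sulfur protein Sdhb and the membrane anchors Sdhc and Sdhd. Sdha was at 49.3, 48.8 and 47.5 FPKM in fl, 44.5, 47.5 and 46.6 in KO and 43.3, 42.3 and 40.3 in Gr_1, a narrow range in which Gr_1 was lowest (log2 change -0.20 ± 0.056, adjusted p = 0.0118). Sdhb was at 32.8, 32.8 and 33.9 FPKM in fl, 28.1, 24.4 and 27.2 in KO and 36.7, 35.0 and 32.0 in Gr_1. KO lay below both other groups (log2 change -0.31 ± 0.074, adjusted p = 0.0296 against fl, and log2 change -0.37 ± 0.074, adjusted p = 0.00288 against Gr_1), while fl and Gr_1 overlapped. The change against Gr_1 turned to 0.057 with equal totals and to 0.067 with totals of nuclear genes, and was not called there. The call in KO against fl was lost in 6 of 9 fits without a library (adjusted p up to 0.0865). Sdhc was at 19.2, 19.2 and 26.8 FPKM in fl, 17.6, 19.1 and 17.3 in KO and 15.4, 14.1 and 13.4 in Gr_1 and lower in Gr_1 (log2 change -0.56 ± 0.12, adjusted p = 0.00400). Sdhd was at 73.8, 77.9 and 87.2 FPKM in fl, 68.4, 73.9 and 68.8 in KO and 73.4, 73.1 and 65.6 in Gr_1, with no call in either comparison with fl. Within this one complex, Sdha and Sdhc passed the test in Gr_1 and Sdhb and Sdhd did not. Differences between subunits were not tested.

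In complex III, the small subunit Uqcr10 had the highest FPKM of the nuclear members, at 86.1, 93.3 and 124 FPKM in fl, 84.7, 90.6 and 81.1 in KO and 92.8, 88.6 and 83.3 in Gr_1, with no call against fl. Uqcrb, the ubiquinone-binding subunit (ENSMUSG00000021520, chromosome 13, 66900617 to 66905378, minus strand), was at 57.1, 51.5 and 61.5 FPKM in fl, 47.3, 52.6 and 37.4 in KO and 34.0, 31.4 and 23.5 in Gr_1. Gr_1 lay below all other libraries (log2 change -0.93 ± 0.16, adjusted p = 0.000967). Uqcrc1, a core protein, was at 46.6, 45.0 and 60.5 FPKM in fl, 39.6, 41.6 and 42.0 in KO and 33.6, 31.7 and 29.9 in Gr_1, in 3 levels without overlap (log2 change -0.65 ± 0.11, adjusted p = 0.000797 in Gr_1 and log2 change -0.29 ± 0.11, adjusted p = 0.131 in KO). Its partner Uqcrc2 was at 38.0, 38.0 and 35.8 FPKM in fl, 33.9, 38.4 and 35.3 in KO and 37.7, 35.9 and 33.2 in Gr_1, where all groups overlapped. Uqcrfs1, the Rieske iron-sulfur protein, was at 70.0, 71.4 and 79.0 FPKM in fl, 60.6, 63.2 and 60.3 in KO and 54.2, 53.9 and 53.1 in Gr_1, again in 3 levels. It was lower in KO (log2 change -0.26 ± 0.062, adjusted p = 0.0341) and in Gr_1 (log2 change -0.44 ± 0.062, adjusted p = 0.000317). Uqcrq, a small subunit, was at 48.9, 51.0 and 45.6 FPKM in fl, 40.9, 37.3 and 40.4 in KO and 47.5, 44.8 and 41.9 in Gr_1 and was lower in KO (log2 change -0.29 ± 0.072, adjusted p = 0.0373), while Gr_1 overlapped with fl. Both calls in KO were lost in 7 of 9 fits without a library, with adjusted p up to 0.136 for Uqcrfs1 and 0.121 for Uqcrq. Cyc1, cytochrome c1, was at 40.5, 41.5 and 47.7 FPKM in fl, 37.4, 37.9 and 37.6 in KO and 36.7, 35.9 and 32.2 in Gr_1 and lower in Gr_1 (log2 change -0.30 ± 0.078, adjusted p = 0.00900). Among small subunits, lower in Gr_1 were also Uqcr11 and Uqcrh, with log2 changes of -0.52 and -0.26. The call of Uqcrh was lost in 3 of 9 fits without a library (adjusted p up to 0.1005) and that of Uqcr11 without Gr_1 C (adjusted p = 0.0706). The 3 tested nuclear members of complex III that were not called in Gr_1 had log2 changes from -0.18 to -0.064.

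Complex IV held both the largest fall among nuclear members in Gr_1 and the one rise. Cox6b2, known as the testis isoform of the subunit Cox6b (ENSMUSG00000051811, chromosome 7, 4751792 to 4753094, minus strand), was at 19.2, 22.5 and 20.0 FPKM in fl, 19.2, 20.4 and 17.4 in KO and 6.59, 6.71 and 8.29 in Gr_1. The Gr_1 libraries lay far below the rest (log2 change -1.40 ± 0.10, adjusted p = 8.58e-06), at a mean FPKM 0.350 of that of fl, while KO and fl overlapped. Cox6a2, the heart and skeletal muscle isoform of Cox6a (ENSMUSG00000030785, chromosome 7, 128205435 to 128206387, minus strand), was at 0.334, 0.708 and 0.716 FPKM in fl, 2.22, 1.69 and 2.16 in KO and 0.734, 1.30 and 1.75 in Gr_1. It was higher in KO (log2 change 0.94 ± 0.18, adjusted p = 0.0126), from 24 fragments in all of fl to 87 in KO, and this call was lost without KO C (adjusted p = 0.0568). In Gr_1 the rise of Cox6a2 (log2 change 0.49 ± 0.18, adjusted p = 0.0395) rested on 43 fragments, was lost in 5 of 9 fits without a library and was not called with voom, without the filter, or under any rescaling. Of 6 heart and skeletal muscle markers, 2 were at 0 in all libraries and the sum of all 6 was 0.0117 to 0.0541 FPKM in fl, 0.0119 to 0.1196 in KO and 0.0878 to 0.226 in Gr_1.

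The most abundant nuclear member of all, Cox8a, was at 325, 325 and 443 FPKM in fl, 327, 291 and 321 in KO and 355, 328 and 328 in Gr_1, with no call. Cox4i1, the regulatory subunit, was at 190, 197 and 224 FPKM in fl, 163, 172 and 168 in KO and 165, 165 and 158 in Gr_1. All fl libraries were above the others, and Cox4i1 was lower in Gr_1 (log2 change -0.32 ± 0.075, adjusted p = 0.00551) and, at the edge of the threshold, in KO (log2 change -0.28 ± 0.075, adjusted p = 0.0492), a call lost in all 9 fits without a library (adjusted p up to 0.151). Cox5a, the partner of Cox5b, was at 31.9, 32.0 and 41.3 FPKM in fl and 25.8, 24.1 and 21.9 in Gr_1 and lower (log2 change -0.53 ± 0.10, adjusted p = 0.00229). Ndufa4 was at 65.2, 63.8 and 69.8 FPKM in fl, 64.0, 63.1 and 62.1 in KO and 53.1, 52.5 and 47.7 in Gr_1. Here KO overlapped with fl and Gr_1 lay below both (log2 change -0.37 ± 0.064, adjusted p = 0.00108). Cox7a2l, which helps complexes III and IV to join into supercomplexes, was at 111, 124 and 146 FPKM in fl and 95.1, 96.4 and 99.5 in Gr_1 (log2 change -0.38 ± 0.10, adjusted p = 0.0104). Further subunits lower in Gr_1 were Cox6c, Cox7c, Cox7b and Cox7a2, with log2 changes of -0.51, -0.49, -0.46 and -0.14. The call of Cox7a2 was lost in 6 of 9 fits without a library (adjusted p up to 0.112) and that of Cox7c without Gr_1 B (adjusted p = 0.0573). The 5 tested nuclear members of complex IV that were not called in Gr_1 had log2 changes from -0.42 to 0.078. The muscle isoform Cox7a1 was at 1.46 to 2.803 FPKM over all libraries, the lung isoform Cox4i2 at 0.0577 to 0.350, Cox8b at 0 to 0.255 and Ndufa4l2 at 0 to 0.114, and Cox8c and Cox7b2 were listed at 0.

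In complex V, the alpha and beta subunits of the catalytic head, Atp5a1 and Atp5b, were the most abundant. Atp5a1 was at 184, 186 and 215 FPKM in fl, 152, 175 and 168 in KO and 141, 134 and 123 in Gr_1, with Gr_1 lowest (log2 change -0.55 ± 0.091, adjusted p = 0.000810), and Atp5b at 178, 174 and 193 FPKM in fl, 153, 171 and 166 in KO and 162, 153 and 136 in Gr_1 (log2 change -0.27 ± 0.084, adjusted p = 0.0205, and 0.0754 without Gr_1 C). The central stalk subunit Atp5c1 was at 90.8, 88.8 and 111 FPKM in fl, 75.9, 71.98 and 76.2 in KO and 75.2, 67.5 and 64.4 in Gr_1. Both other groups lay below fl (log2 change -0.48 ± 0.097, adjusted p = 0.00245 in Gr_1 and log2 change -0.36 ± 0.097, adjusted p = 0.0461 in KO), and the call in KO was lost in all 9 fits without a library (adjusted p up to 0.125). Atp5g1, Atp5g2 and Atp5g3 encode the same mature c subunit of the rotating ring. Atp5g1 was at 8.12, 8.27 and 10.7 FPKM in fl, 7.46, 7.97 and 7.67 in KO and 5.96, 4.87 and 4.20 in Gr_1 (log2 change -0.74 ± 0.12, adjusted p = 0.000905 in Gr_1), and Atp5g2 at 64.6, 70.2 and 84.7 FPKM in fl, 57.9, 69.0 and 63.7 in KO and 48.9, 42.5 and 37.4 in Gr_1 (log2 change -0.76 ± 0.13, adjusted p = 0.000866). Atp5g3 was lower in Gr_1 as well (log2 change -0.46 ± 0.12, adjusted p = 0.00891), and none of the 3 was called in KO. Of the 100-base words of Atp5g2, 34.7% occur in other transcripts, the transcribed pseudogene Gm10175 above all, so its level is uncertain. In the peripheral stalk, Atp5h was lower in Gr_1 (log2 change -0.42 ± 0.075, adjusted p = 0.00115), and Atp5o, Atp5j and Atp5f1 were not called in any comparison. The remaining members lower in Gr_1 were Atp5d, Atp5mpl and Atp5e, with log2 changes of -0.57, -0.49 and -0.27. The call of Atp5e was lost without KO C and without any 1 of the Gr_1 libraries (adjusted p up to 0.0861). The 7 tested nuclear members of complex V that were not called in Gr_1 had log2 changes from -0.50 to 0.12.

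**Figure D4:**
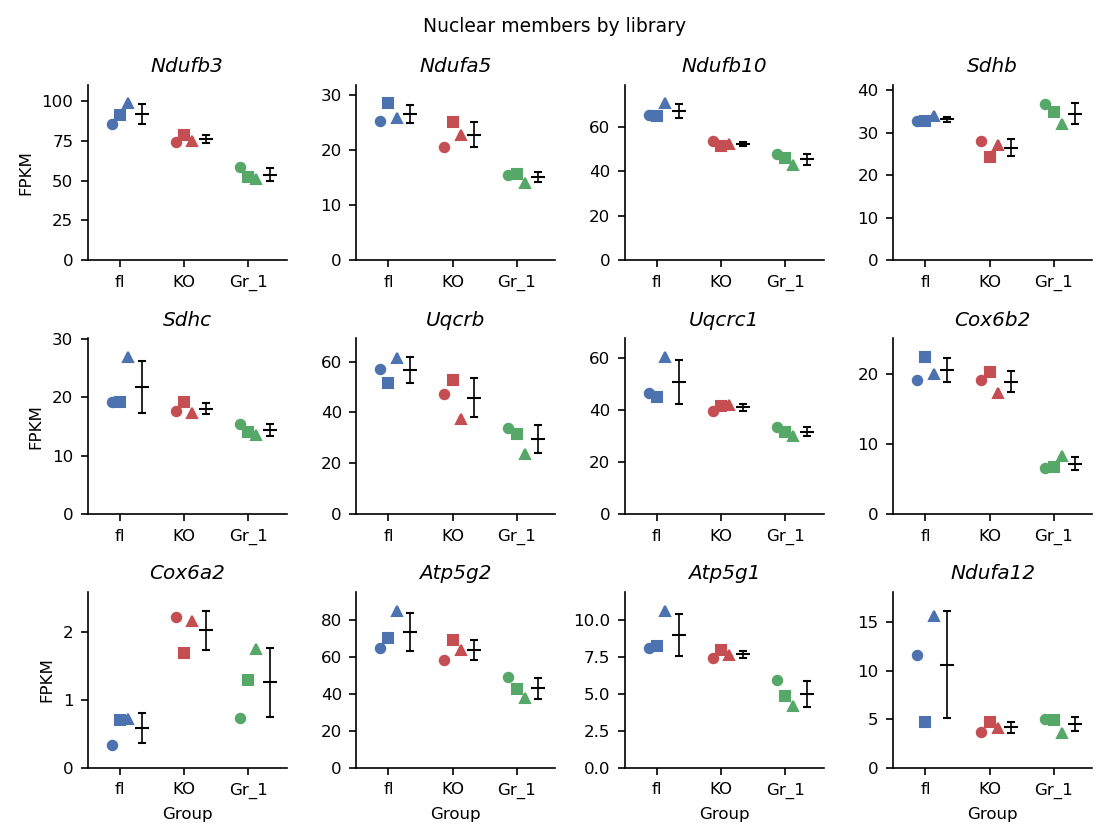
FPKM of 12 nuclear members in each library, with the group mean and SD (n = 3) in black and each axis starting at 0; colours stand for groups and circle, square and triangle for libraries A, B and C. Cox6b2 is at 6.59 to 8.29 in Gr_1 against 17.4 to 22.5 in the other groups, Sdhb is lowest in KO, and for Ndufa12 the square of fl lies among the KO and Gr_1 values.

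Where several genes encode versions of 1 subunit, their shares of the summed FPKM of the set showed how the mix differed. Cox6b2 made up 12.5%, 13.6% and 8.14% of Cox6b in fl, 12.7%, 13.8% and 12.4% in KO and 4.80%, 5.32% and 6.76% in Gr_1. Cox6b1, the common form, was at 134, 143 and 226 FPKM in fl, 132, 127 and 122 in KO and 131, 119 and 114 in Gr_1, with fl C far above the rest and no call against fl. Cox6a2 stayed under 1% of Cox6a in every library, at 0.196 ± 0.0676% in fl, 0.776 ± 0.0598% in KO and 0.461 ± 0.227% in Gr_1 (SD, n = 3). In the c subunit set, Atp5g3 made up 44.2 ± 1.07% in fl, 43.0 ± 1.22% in KO and 49.5 ± 1.17% in Gr_1, and Atp5g2 made up 49.7 ± 1.13%, 50.8 ± 1.38% and 45.3 ± 0.852%. Gr_1 thus lay apart from both other groups in the Cox6b and the c subunit mix as listed. In Cox6b the margin was narrow between fl C (8.14%) and Gr_1 C (6.76%). The c subunit shares are uncertain, since 34.7% of the 100-base words of Atp5g2 occur in other transcripts. Within Cox4, Cox8 and Ndufa4 one gene held more than 99% of the set in every library.

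**Figure D5:**
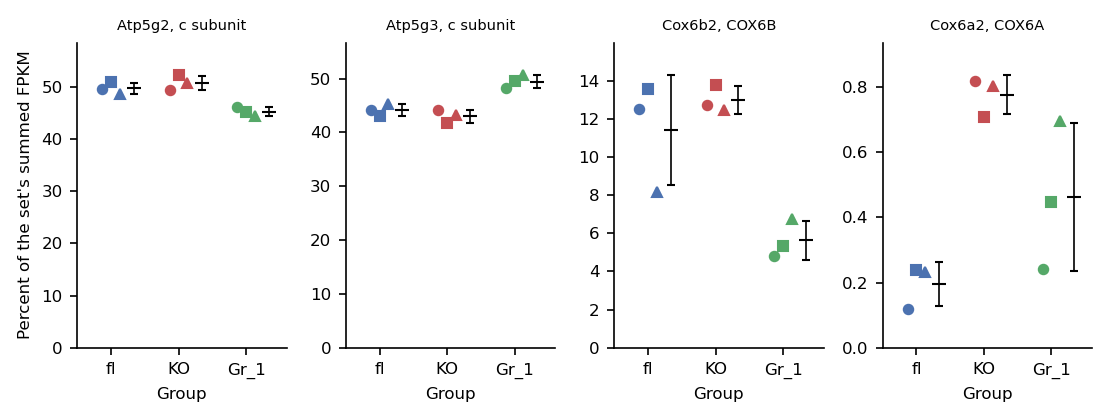
Percent of the summed FPKM of a subunit set that came from Atp5g2, Atp5g3 (c subunit), Cox6b2 (Cox6b) and Cox6a2 (Cox6a), by library, with the group mean and SD (n = 3) in black. Gr_1 lies apart from fl and KO in the first 3 panels, where the c subunit shares are uncertain through sequence that Atp5g2 shares with other transcripts. The last panel reaches 0.818%.

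In KO against Gr_1, 20 of 81 nuclear members were higher in KO (26.7% of all genes were) and 5 lower (28.9% of all genes), with a median of 0.14 beside 0.008 over all genes. Of the mitochondrial members 8 of 13 were higher in KO, the 7 abundant genes and mt-Atp8. The call of mt-Nd4 was lost in 6 of 9 fits without a library (adjusted p up to 0.0898) and that of mt-Atp8 in 2. The number of nuclear members higher in KO was 34 without fl C, 12 without KO B, 12 without KO C, 13 without Gr_1 B and 11 without Gr_1 C, and the number lower was 3 without KO C and 2 without Gr_1 A. Over all genes, 3287 were higher in KO with all libraries, and 3677, 2626, 2586, 2693 and 2759 in the same order. Those lower over all genes were 3556 with all libraries, 3049 without KO C and 2967 without Gr_1 A. Cox6b2 led the nuclear ones (log2 change 1.29 ± 0.10, adjusted p = 3.83e-05), with Uqcrb (log2 change 0.61 ± 0.16, adjusted p = 0.0101), Ndufa5 and Atp5g2 (log2 changes 0.56 and 0.56) after it. The 5 lower ones were Ndufa13, Sdhb, Ndufs5, Atp5l and Ndufs4. Ndufa13, an accessory subunit also known to bind STAT3, was at 49.8, 50.3 and 66.1 FPKM in fl, 47.5, 41.8 and 46.6 in KO and 60.6, 60.1 and 62.5 in Gr_1. KO lay below both other groups (log2 change -0.42 ± 0.11, adjusted p = 0.00952 against Gr_1), but was not called against fl (log2 change -0.27 ± 0.11, adjusted p = 0.1495). Of the words of Ndufa13, 24.0% occur in its neighbour Tssk6. Ndufs5 was at 50.4, 54.0 and 53.9 FPKM in fl, 45.0, 44.5 and 45.9 in KO and 60.6, 53.4 and 50.3 in Gr_1 and Ndufs4 at 14.9, 15.4 and 16.3 FPKM in fl, 13.4, 14.2 and 13.2 in KO and 15.6, 15.2 and 16.2 in Gr_1, with KO lowest in both. Neither was called in KO against fl (log2 changes -0.22 and -0.18, adjusted p = 0.1005 and 0.098 with limma). Against Gr_1, the call of Ndufs4 was lost in 4 of 9 fits without a library (adjusted p up to 0.0885), that of Atp5l in 2 and that of Ndufs5 in 1. These directions depended on the scale. With equal totals the changes of Ndufa13, Sdhb, Ndufs5 and Atp5l turned to 0.008, 0.057, 0.16 and 0.20, none of them called. In that scaling 75 nuclear members were higher in KO and 0 lower, where 54.6% of all genes were higher and 1598 of 12335 lower. Without the 10 most abundant genes in the totals, 51 were higher and 2 lower, where 39.2% and 20.6% of all genes were.

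Genes that serve the complexes without being part of them were counted from lists. Of all genes tested, 30.0% were higher and 31.4% lower in Gr_1 than in fl, and 4.48% and 6.52% in KO. With equal totals, 15.5% of all genes were higher and 54.2% lower in Gr_1. Of 77 mitochondrial ribosomal proteins tested, which translate the mitochondrial members, 60 were lower and 1 was higher in Gr_1 than in fl (median -0.43), and 5 were lower in KO (median -0.14). With equal totals, 75 were lower and none was called higher in Gr_1. Mrpl4 was at 14.6, 15.9 and 16.1 FPKM in fl, 11.9, 11.6 and 11.8 in KO and 9.63, 9.70 and 9.998 in Gr_1, in 3 separate levels (log2 change -0.62 ± 0.058, adjusted p = 3.37e-05 in Gr_1 and log2 change -0.37 ± 0.058, adjusted p = 0.00497 in KO). Of 39 assembly factors, 19 were lower and 3 higher in Gr_1, and 2 were lower in KO. Atpaf2, which assembles complex V, was at 10.6, 10.3 and 11.8 FPKM in fl and 7.09, 6.11 and 5.99 in Gr_1 (log2 change -0.69 ± 0.079, adjusted p = 0.000103), while Cox17, the copper chaperone of complex IV, was at 0.748, 0.843 and 0.656 FPKM in fl and 1.38, 1.44 and 1.62 in Gr_1 and higher (log2 change 0.51 ± 0.097, adjusted p = 0.00186, and 0.29 with equal totals). Of 18 citric acid cycle genes 13 were lower and 2 higher in Gr_1, the latter Mdh2 and Dlst (log2 changes 0.35 and 0.32, which turned to -0.052 and -0.076 with equal totals). Of 25 genes for copying and transcribing mitochondrial DNA, 12 were lower and 3 higher in Gr_1, with the exonuclease Mgme1 at 5.88, 6.00 and 5.82 FPKM in fl and 2.35, 2.44 and 2.09 in Gr_1 (log2 change -1.07 ± 0.12, adjusted p = 7.10e-05). Of 15 mitochondrial rRNA and tRNA genes tested, 3 were higher in Gr_1, both rRNAs among them, and 2 lower. mt-Rnr2 was at 107, 108 and 110 FPKM in fl and 285, 332 and 353 in Gr_1 (log2 change 1.56 ± 0.17, adjusted p = 6.38e-05), and the change was 1.15 with equal totals. How rRNA was handled before sequencing is not described here, so these rRNA levels may not follow those in the cells.

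Regulators of mitochondrial biogenesis were mixed in Gr_1, with 6 of 13 higher and 2 lower as deposited, where 30.0% and 31.4% of all genes were. With equal totals 1 was higher and 6 lower, where 15.5% and 54.2% of all genes were. Prkaa1, the catalytic subunit of AMP-activated kinase, was at 9.93, 9.90 and 7.69 FPKM in fl and 19.4, 19.1 and 19.6 in Gr_1 and higher (log2 change 1.01 ± 0.099, adjusted p = 4.00e-05, and 0.62 with equal totals). Gabpb1, a partner of the ETS factor GABPA, was also higher (log2 change 0.52 ± 0.070, adjusted p = 0.000237, and 0.17 and not called with equal totals), and Pprc1, a coactivator related to Ppargc1a, was lower (log2 change -0.64 ± 0.13, adjusted p = 0.00257). In KO, limma called 0 of these 13 (2 higher and 1 lower without adjustment, at p under 0.05, and 1 called higher with voom). Of 16 carriers, cytochrome c and uncoupling genes, 8 were lower and 4 higher in Gr_1, where 31.4% and 30.0% of all genes were. In KO 3 were lower, where 6.52% of all genes were. The ADP/ATP carrier Slc25a5 was at 238, 247 and 280 FPKM in fl, 182, 221 and 199 in KO and 161, 146 and 134 in Gr_1, lower in Gr_1 (log2 change -0.79 ± 0.10, adjusted p = 0.000213). Cytochrome c itself, Cycs, was at 25.2, 26.8 and 23.1 FPKM in fl, 18.7, 21.6 and 20.99 in KO and 17.1, 17.0 and 17.4 in Gr_1, below fl in both groups (log2 change -0.28 ± 0.075, adjusted p = 0.0461 in KO). Its call in KO was lost without KO C (adjusted p = 0.117) and under all 4 rescalings (limma, adjusted p from 0.137 to 0.205). The uncoupling protein Ucp2 was at 143, 142 and 162 FPKM in fl, 122, 90.04 and 105 in KO and 188, 178 and 161 in Gr_1 and lower in KO (log2 change -0.49 ± 0.12, adjusted p = 0.0292), while the lowest Gr_1 library lay within the range of fl. The call of Ucp2 in KO was lost without KO C (adjusted p = 0.0985) and without fl C (adjusted p = 0.0738). Without KO C, limma called 3 mitochondrial ribosomal proteins lower in KO and no gene of the other lists, and the call of Mrpl4 was kept (adjusted p = 0.0306). Without fl C it called 4 mitochondrial ribosomal proteins, 1 assembly factor, 1 carrier and 3 rRNA or tRNA genes lower in KO and 1 carrier higher. Of all genes, 378 of 12175 were lower and 195 higher without KO C, and 688 of 12150 lower and 486 higher without fl C.

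Promoter windows of RefSeq (GRCm38.p6, 250 bases before to 50 after the start) matched 64 of the 81 tested nuclear members. Windows were searched on both strands for short cores of factors known to act on genes of the respiratory chain, and shares were set beside those of 7568 protein-coding genes tested. CCGGAAG, bound by ETS factors such as GABPA, occurred in 23.4% of member windows and 20.97% of all. GCGCATGC, the core of the site of NRF1, occurred in 14.1% and 6.20%, AAGATGGC, the core of YY1, in 14.1% and 5.35%, and AAGGTCA, bound by the estrogen-related receptors (ERR), in 12.5% and 2.93%. GGGCGG, an SP1 site, occurred in 40.6% of member windows and 66.4% of all, at a median GC content of 57.8% and 61.0%. None of these motifs is part of another. A match is a description of the letters and not a bound site. For each of the ETS, NRF1 and ERR cores, the member lower in Gr_1 with the smallest adjusted p that holds the core before its start is shown, as 100 bases that end 0 to 33 bases before the RefSeq start with the core in capitals (for Ndufa6 on the opposite strand); no such member held the YY1 core there. Starts differ between annotations. The GENCODE M21 start lies 106, 31 and 85 bases upstream of the RefSeq start for Ndufs3, Ndufa6 and Ndufb4, so by GENCODE the stretch of Ndufs3 and the core of Ndufb4 lie inside the gene, and the stretch of Ndufa6 lies before it.
Ndufs3, ETS core (chr2:90904722-90904821, minus strand): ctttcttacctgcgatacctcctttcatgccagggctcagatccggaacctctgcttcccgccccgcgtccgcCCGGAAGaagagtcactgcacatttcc
Ndufa6, NRF1 core (chr15:82354325-82354424, minus strand): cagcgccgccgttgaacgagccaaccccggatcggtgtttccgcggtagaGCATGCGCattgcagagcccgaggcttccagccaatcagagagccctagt
Ndufb4, ERR core (chr16:37654374-37654473, minus strand): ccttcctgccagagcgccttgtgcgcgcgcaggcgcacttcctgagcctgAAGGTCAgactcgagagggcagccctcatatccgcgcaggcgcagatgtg
Ndufa6, an accessory subunit of the matrix arm, was at 30.6, 33.7 and 45.5 FPKM in fl and 24.1, 24.6 and 22.0 in Gr_1 (log2 change -0.59 ± 0.13, adjusted p = 0.00382), and Ndufb4, of the membrane arm, at 16.0, 16.2 and 19.3 FPKM in fl and 13.8, 13.3 and 11.7 in Gr_1 (log2 change -0.38 ± 0.088, adjusted p = 0.00494).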

How the data were processed

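RNA-seq was run on total RNA of 9 libraries, 3 in each of fl, KO and Gr_1. The authors deposited 1 FPKM column per library for 54532 genes, per the file headers. The submitters' processing notes name featureCounts 1.5.0-p3, DESeq2 1.16.1 and the builds mm10 and GRCm38, and no source used here names an aligner. Gene symbols, exon lengths and coordinates came from GENCODE M21 (54495 identifiers matched, 37 did not). FPKM times exon length gave whole fragments within 0.02 for 97.2% to 97.5% of values under 1000 fragments. For 1 kilobase of exon, 3 fragments correspond to 0.136 to 0.187 FPKM, and such floors cover counting error only.

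Genes with at least 1 FPKM in 3 libraries (12289) were fitted as log2(FPKM + 1) with limma 3.58.1 in R 4.3.3, with a mean-variance trend and all 9 libraries in 1 fit with no block. The pseudocount of 1 understates the change of low genes. Tests were two-sided, with Benjamini-Hochberg adjustment over all genes and a threshold of 0.05. Errors beside log2 changes are standard errors. The procedure was tested on simulated data. Members and lists were chosen with earlier results of these data known. Named were all mitochondrial, Sdh and Cyc1 genes, subunit variants, the 2 largest called changes per direction, complex and comparison, the most abundant members, and up to 2 called genes per list and direction; other members were named after their values were seen. Alternatives covered pseudocount, filter, scaling, variance model, design, voom on recovered fragments and leaving out each library. Python 3.11.15, pandas 2.3.3 and matplotlib 3.10.9 were used for tables and figures.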

Additional observations from a re-analysis of the deposited data

How the results depend on the processing

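The number of nuclear members lower in KO than in fl, 7 as reported, was 3 without a filter, 2 with the 10 most abundant genes left out of the totals (with 1 higher), 3 with quantile normalization and 1 with only the compared groups in the fit, and 10 with equal totals, 10 with totals of nuclear genes, 10 with voom and 8 with the 5 FPKM filter. Over all genes, 801 were lower as reported, and 571, 578, 789, 524, 782, 789, 929 and 632 in the same order. The fit without a filter tested 27778 genes and that with the 5 FPKM filter 7516. Nuclear members lower ranged from 0 to 5 when 1 library was left out, where 378 to 747 of all genes were lower. The number higher, 1 as reported, ranged from 0 to 1, where 195 to 635 of all genes were higher. With the letter A, B or C as a replicate block the number lower was 1, where 622 of all genes were lower. Whether the letters pair the libraries is not settled by the values. Correlations of deviations from the group means ranged from -0.0618 to 0.140 for same-letter libraries and from -0.1321 to 0.0818 for different letters. With 3 libraries per group such values cannot decide it. With the filter at 5 FPKM the number higher was 0, since Cox6a2 was not tested. Mitochondrial members called in KO, 0 as reported, were 0 to 3 without 1 library. In Gr_1 against fl, nuclear members lower, 49 as reported, were 78 with equal totals and 78 with totals of nuclear genes, and 41 to 51 without 1 library, while the number higher was 0 without a filter, with the 5 FPKM filter, under all 4 rescalings, with only the compared groups and with voom, and 0 to 3 without 1 library. Over all genes, 3864 were lower as reported, 6680 with equal totals, 6749 with totals of nuclear genes and 3366 to 3884 without 1 library. Genes higher were 3686 as reported, 1871 to 4655 under the settings named for that direction and 3044 to 3717 without 1 library. The 8 mitochondrial calls were 7 to 8 without 1 library. In KO against Gr_1, nuclear members higher, 20 as reported, were 75 with equal totals, 75 with totals of nuclear genes, 51 without the 10 most abundant genes and 55 with quantile normalization, and 11 to 34 without 1 library. Over all genes, 3287 were higher as reported, 6737, 6793, 4819 and 3904 in the same order, and 2586 to 3677 without 1 library. Nuclear members lower, 5 as reported, were 0, 0, 2 and 1 under the same settings and 2 to 7 without 1 library. Over all genes, 3556 were lower as reported, 1598, 1566, 2532 and 3139 under the same settings, and 2884 to 3877 without 1 library. The mitochondrial calls, 8 as reported, were 6 to 9 without 1 library. In this comparison Atp5l, Ndufa13, Ndufs5 and Sdhb turned to 0.20, 0.008, 0.16 and 0.057 with equal totals and to 0.20, 0.017, 0.17 and 0.067 with totals of nuclear genes, which follows from the shift of all genes. Without overlapping genes the mitochondrial share was 48.6% in KO and 40.8% in Gr_1, and in recovered fragments 48.1% and 40.7%. With the 7 abundant genes alone, an alternative chosen after seeing the data, it was 50.4% in fl, 52.9% in KO and 44.6% in Gr_1. Of these genes, mt-Co1 and mt-Nd4 have 30.8% and 60.8% of their 100-base words in other transcripts. The mitochondrial share over all members ranged over 48.4% to 55.2% in fl, 52.9% to 53.3% in KO and 44.5% to 45.9% in Gr_1 without 1 library. Totals over the settings cover only called members named by the rule above, 31 in Gr_1 against fl, 23 in KO against Gr_1 and 8 in KO against fl. Members named after their values were seen, Ndufa2 and Ndufb6 among them, are not in these totals. In Gr_1 against fl 608 values kept their direction and call and 39 lost the call. The numbers were 433 and 40 in KO against Gr_1, where 8 more turned direction, and 91 and 76 in KO against fl. With equal totals, assembly factors lower in Gr_1 were 33 instead of 19, and genes for mitochondrial DNA expression 21 instead of 12. Of all genes, 54.2% were lower there instead of 31.4%. Depth limits mt-Atp8, mt-Nd4l and Cox6a2, with 1 to 39 fragments per library.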
